A study of Homo sapiens with 6 samples.

Results

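Expression of the 7 genes that write, maintain or remove methyl groups on cytosine, namely DNMT1, DNMT3A, DNMT3B, UHRF1, TET1, TET2 and TET3, was measured in 4 cell lines of atypical teratoid/rhabdoid tumor (AT/RT), a malignant pediatric tumor of the central nervous system that has lost SMARCB1, a subunit of the SWI/SNF chromatin remodeling complex. The genes were chosen by symbol, and all 7 were found, among 36532 gene identifiers. The lines were CHLA 06, CHLA 02, CHLA 05 and CHLA 04, each derived from a tumor and grown without a drug or a genetic change in DMEM:F12 medium with EGF, bFGF and B-27. In the study's molecular grouping, CHLA 02, CHLA 04 and CHLA 05 belong to group 1 and CHLA 06 is the only line of group 2. Total RNA was sequenced as 6 libraries, with 1 each for CHLA 02 and CHLA 05 and 2 technical replicates each for CHLA 04 and CHLA 06. Every line was thus represented by 1 biological sample, so no lines were compared by a test. No normal tissue and no cells with SMARCB1 restored were among them.

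Cytosine methylation in CG dinucleotides is copied at each cell division by DNMT1, which UHRF1 recruits to newly replicated DNA. DNMT3A and DNMT3B place methyl groups on unmethylated DNA. TET1, TET2 and TET3 are dioxygenases that oxidize methylcytosine, after which the mark is lost by dilution or by base excision repair. In neural development and in brain tumors this machinery is known for its part in silencing germline genes and endogenous retroviruses. The values below are RNA levels, and neither enzyme activity nor methylation was measured.

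The level of a gene is given as TPM, an abundance of transcripts per unit of length that is scaled to the same total in each library and was summed here over the transcripts of the gene. Between 10265899 and 20520229 reads per library lay on transcripts, and a single read on a transcript of 1 kb stood for 0.117 to 0.236 TPM. A 95% Poisson interval from these reads covers counting error only. A gene was called different between lines when log2(TPM + 2) differed by 1 or more, which is 2-fold on that scale and understates the change of low genes. Genes with 1 TPM or more in a line, of which there were 16035, served as the background. Of the neural precursor markers, VIM had 4629 to 19464 TPM, NES 5.21 to 27.6 TPM and SOX2 4.03 TPM or below. PAX6 had 15.8 to 36.9 TPM in CHLA 02, CHLA 04 and CHLA 05 and at most 0.937 TPM in CHLA 06. Endothelial and leukocyte markers summed to at most 3.70 and 0.465 TPM. SMARCB1 itself had 13.5 to 26.2 TPM, and a sum over transcripts does not show whether an exon is missing. The median gene was 0.19 higher in CHLA 04 than in CHLA 06 and 0.17 higher in CHLA 05 than in CHLA 06 on the log2 scale, and it was 0.13 lower in CHLA 02 than in CHLA 04.

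All 7 genes were transcribed in every library. DNMT1 had the highest summed TPM in each of the 6 libraries, UHRF1 was next in each, and DNMT3B was the lowest in each. DNMT1 lay between percentiles 94.4 and 97.6 of the genes above 0 and UHRF1 between 84.0 and 95.3, whereas DNMT3B lay between 33.7 and 42.4. The line means of CHLA 04 and CHLA 05 were both above those of CHLA 02 and CHLA 06 for 7 of 7 members, an order noticed after the values were seen. For TET2 the libraries of CHLA 02, CHLA 04 and CHLA 06 overlapped. CHLA 04 became its lowest line with median-ratio scaling, as reads per kb of merged exons, and without CHLA 04 replicate 1. The place of TET2 in this order thus depended on the processing. The same order held for 34.9% of all 16035 genes.

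**Figure D1:**
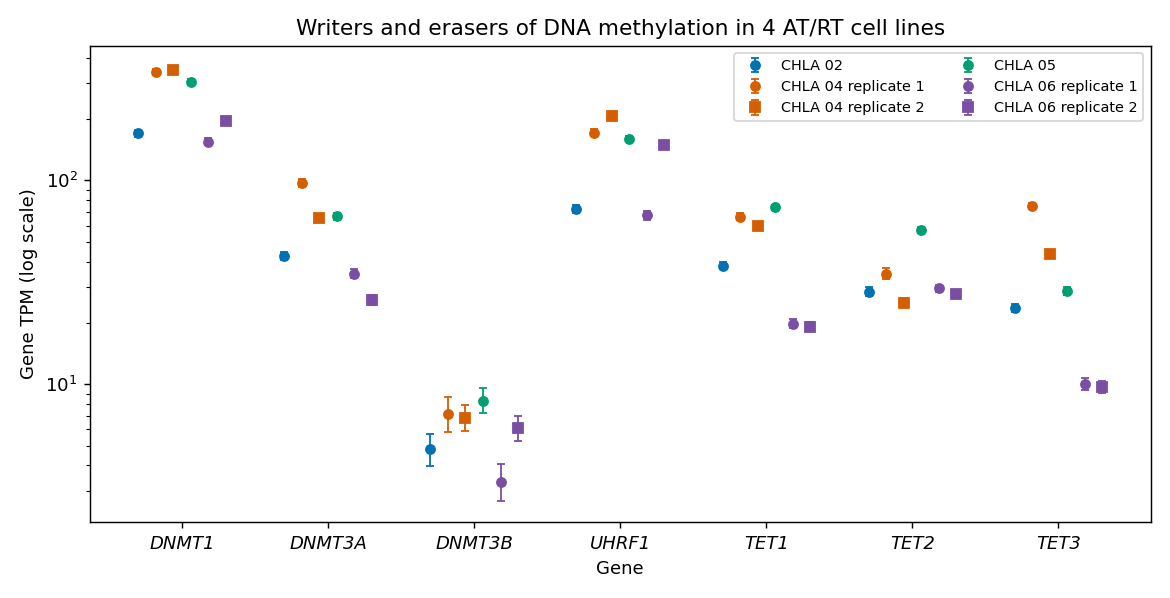
Gene TPM on a log scale for each of the 7 genes, with 1 point per library, colors for cell lines, squares for the second technical replicate and bars for the 95% Poisson interval of the recovered reads. DNMT1 lies at 155 to 348 TPM and DNMT3B at 3.33 to 8.32 TPM, and the points of CHLA 06 lie lowest for DNMT3A, TET1 and TET3.

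DNMT1 (ENSG00000130816), the maintenance methyltransferase, lies on the minus strand of chromosome 19 at 10133345-10231286 in GRCh38. Its level was 170 TPM in CHLA 02, 340 and 348 TPM in the pair of libraries of CHLA 04, 305 TPM in CHLA 05, and 155 and 197 TPM in that of CHLA 06. The values of CHLA 04 and CHLA 05 did not overlap with those of CHLA 02 and CHLA 06, and the latter overlapped with each other. CHLA 04 was 2.02-fold above CHLA 02, a log2(TPM + 2) difference of 1.01 with both at 2632 or more reads per library. Most of the summed TPM of DNMT1 sat on short transcripts, as described further on. Counted instead as reads per kb of merged exons, DNMT1 had 68.5 to 166 units and was below UHRF1, at 78.8 to 240 of the same units, in all 6 libraries. CHLA 04 remained the highest line and CHLA 02 the lowest on that scale, 2.03-fold apart.

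UHRF1 (ENSG00000276043; chromosome 19, plus strand, 4903080-4962154) reads hemimethylated DNA and brings DNMT1 to it. It had 72.4 TPM in CHLA 02, 171 and 206 TPM in CHLA 04, 160 TPM in CHLA 05, and 67.3 and 149 TPM in CHLA 06. The CHLA 06 libraries therefore spanned a large part of the range of the 4 lines, from below CHLA 02 to just under CHLA 05. Their mean was 108 ± 57.7 TPM (SD, n = 2 technical replicates), against 188 ± 24.4 TPM in CHLA 04. CHLA 04 was 2.60-fold and CHLA 05 2.21-fold above CHLA 02. The difference between CHLA 04 and CHLA 06 was 0.79 with both replicates and 1.46 without CHLA 06 replicate 2, and that between CHLA 05 and CHLA 06 was 0.55 and 1.22, so 1 library decided whether either was past 2-fold. Without CHLA 06 replicate 1, UHRF1 was past 2-fold lower in CHLA 02 than in CHLA 06, at -1.02.

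DNMT3A (ENSG00000119772; chromosome 2, minus strand, 25227855-25342590), a methyltransferase that acts on unmethylated DNA, had 42.6 TPM in CHLA 02, 97.2 and 65.5 TPM in CHLA 04, 66.6 TPM in CHLA 05, and 34.9 and 25.9 TPM in CHLA 06. Both CHLA 06 libraries were below every other library, and CHLA 05 fell within the spread of CHLA 04. CHLA 04 was 2.68-fold and CHLA 05 2.19-fold above CHLA 06, with log2(TPM + 2) differences of 1.36 and 1.08. The second of these fell to 0.89 with median-ratio scaling, 0.92 with quantile normalization and 0.89 without CHLA 06 replicate 2.

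DNMT3B (ENSG00000088305; chromosome 20, plus strand, 32762385-32809356), the second enzyme of this kind and the one most typical of early embryonic cells, had 4.79 TPM in CHLA 02, 7.14 and 6.85 TPM in CHLA 04, 8.32 TPM in CHLA 05, and 3.33 and 6.09 TPM in CHLA 06. These values rested on 93 to 200 reads per library, the fewest of any member. The 2 CHLA 06 libraries differed 1.83-fold from each other, and their 95% Poisson intervals, 2.69 to 4.08 and 5.27 to 7.01 TPM, did not overlap. The highest and the lowest line differed 1.77-fold, so no pair of lines was past the threshold. DNMT3A exceeded DNMT3B in every library, from 4.24-fold in CHLA 06 replicate 2 to 13.6-fold in CHLA 04 replicate 1. DNMT3L, the inactive partner that stimulates both enzymes in germ cells, was listed at 0 in all 6 libraries.

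TET1 (ENSG00000138336; chromosome 10, plus strand, 68560656-68694482), a dioxygenase with a CXXC domain that binds CG-rich DNA, had 38.1 TPM in CHLA 02, 66.5 and 59.4 TPM in CHLA 04, 73.8 TPM in CHLA 05, and 19.8 and 19.2 TPM in CHLA 06. The order of the lines was CHLA 05, CHLA 04, CHLA 02 and CHLA 06, and no libraries of different lines overlapped. CHLA 05 was 3.79-fold and CHLA 04 3.23-fold above CHLA 06, and the replicates within CHLA 04 and CHLA 06 differed 1.12-fold and 1.03-fold.

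TET3 (ENSG00000187605; chromosome 2, plus strand, 73986404-74108176), the family member known for oxidizing the paternal genome in the zygote and for its expression in neurons, had the widest range of the 7 genes. It was at 23.7 TPM in CHLA 02, 74.9 and 43.7 TPM in CHLA 04, 28.7 TPM in CHLA 05, and 10.004 and 9.71 TPM in CHLA 06. No libraries of different lines overlapped, but the CHLA 04 replicates differed 1.71-fold. CHLA 04 was 6.02-fold above CHLA 06, on 3252 or more reads against 907 or fewer per library. Past the threshold were also CHLA 05 over CHLA 06 at 1.37, CHLA 04 over CHLA 02 at 1.25, and CHLA 02 over CHLA 06 at 1.12 on the log2 scale. The difference of CHLA 04 and CHLA 05 was 0.997, just inside the threshold. Without CHLA 04 replicate 1, CHLA 04 exceeded CHLA 02 by 0.83, so that library decided this call.

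TET2 (ENSG00000168769; chromosome 4, plus strand, 105145875-105279816), which lacks a CXXC domain of its own, had 28.5 TPM in CHLA 02, 34.8 and 25.1 TPM in CHLA 04, 57.4 TPM in CHLA 05, and 29.5 and 27.6 TPM in CHLA 06. CHLA 05 was above all other libraries, and the other 5 libraries overlapped across lines. CHLA 05 had 2.02 times the TPM of CHLA 02 and 2.01 times that of CHLA 06, which with the pseudocount came to 0.96 for both, short of the threshold. Within the family, TET2 took 49.8% and 48.8% of the summed TET TPM in CHLA 06, 31.5% in CHLA 02, and 35.9% in CHLA 05, but 19.8% and 19.6% in the CHLA 04 replicates. TET1 was the leading member in CHLA 02 and CHLA 05 at 42.2% and 46.2%. In CHLA 04 TET3 led in replicate 1 at 42.5% and TET1 in replicate 2 at 46.3%. The leads of TET2 in CHLA 06 and of TET3 in CHLA 04 replicate 1 depended on the length that reads were divided by. As reads per kb of merged exons, TET1 was above TET2 in both CHLA 06 libraries, at 37.4 and 35.1 against 30.4 and 26.9 units. In CHLA 04 replicate 1 TET1 was then above TET3, at 136 against 129 units. The 3 genes together had 56.5 to 59.3 TPM in CHLA 06, 90.3 TPM in CHLA 02 and 128 to 176 TPM in CHLA 04 and CHLA 05.

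Over the 6 pairs of lines, 11 of 42 combinations of a member and a pair were past 2-fold. Between CHLA 02 and CHLA 04 they were DNMT1, UHRF1 and TET3, that is 3 of 7 members where 17.2% of all genes were past 2-fold. Between CHLA 04 and CHLA 06, and likewise between CHLA 05 and CHLA 06, they were DNMT3A, TET1 and TET3, 3 of 7 each, where the background was 30.2% and 26.3%. Between CHLA 02 and CHLA 05 it was UHRF1 alone, against 20.0% of all genes, and between CHLA 02 and CHLA 06 TET3 alone, against 9.48%. No member was past 2-fold between CHLA 04 and CHLA 05, where 17.2% of all genes were. No test was made of these counts against the background. The median member difference was 0.96 for CHLA 04 over CHLA 06 and 0.96 for CHLA 05 over CHLA 06, where the medians of all genes were 0.19 and 0.17. With median-ratio scaling, DNMT1 between CHLA 02 and CHLA 04 fell to -0.88 and with quantile normalization to -0.75, both within the threshold. With quantile normalization TET3 between CHLA 02 and CHLA 06 also fell within it, at 0.96. By contrast, TET3 between CHLA 04 and CHLA 05, at 0.997 as reported, came past the threshold at 1.04 with quantile normalization. With the higher technical replicate that difference was 1.32. TET1 and TET3 stayed past the threshold in CHLA 04 and CHLA 05 against CHLA 06 under both scalings.

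**Figure D2:**
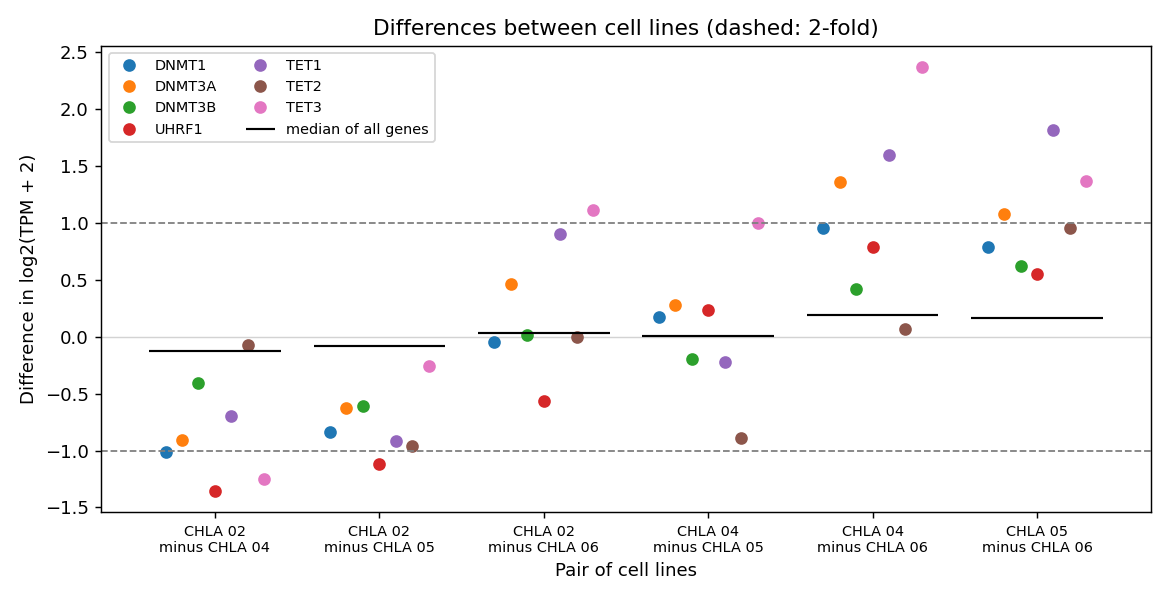
Difference in log2(TPM + 2) for each pair of cell lines, named on the x axis, with 1 point per gene, black bars for the median of all 16035 genes and dashed lines at 2-fold. TET3 reaches 2.37 and TET1 1.60 for CHLA 04 minus CHLA 06, while no point passes a dashed line for CHLA 04 minus CHLA 05.

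The technical replicates gave a measure of how far libraries of the same sample lay apart. In CHLA 04, 4.06% of all genes were past 2-fold between them and 0 of 7 members were. In CHLA 06, 0.954% of all genes and 1 of 7 members were, namely UHRF1, which was 2.21-fold higher in replicate 2. Genes of DNA replication moved with it. All 17 genes of a list of S-phase and proliferation genes were higher in CHLA 06 replicate 2, 5 of them past 2-fold, with a median of 0.83 on the log2 scale against 0.00 for all genes. RRM2, a subunit of ribonucleotide reductase, went from 130 to 400 TPM, and CDC6, a licensing factor of replication origins, from 12.7 to 36.7 TPM. DNMT1 was 1.27-fold and DNMT3B 1.83-fold higher in replicate 2, DNMT3A was 1.35-fold lower, and the TET genes differed by 1.07-fold or less. In CHLA 04, 14 of the 17 genes were higher in replicate 2, with a median of 0.37. The part of these genes in the differences of UHRF1 and DNMT1 between lines was not tested.

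**Figure D3:**
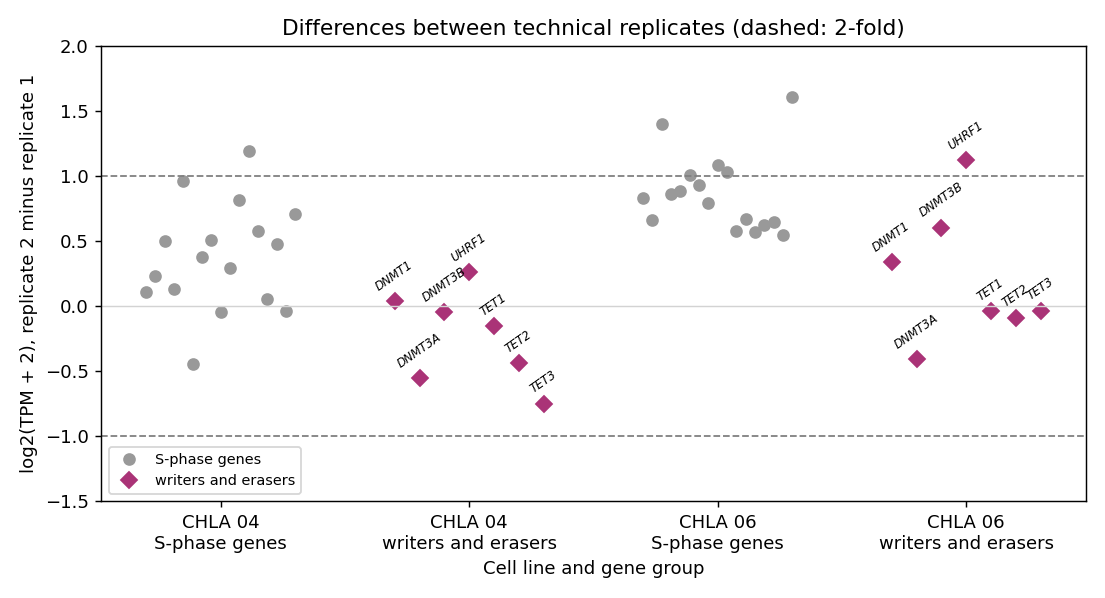
Difference in log2(TPM + 2) between the technical replicates, as replicate 2 minus replicate 1, for 17 S-phase genes (circles) and the 7 writers and erasers (diamonds) in CHLA 04 and CHLA 06, with dashed lines at 2-fold. In CHLA 06 all 17 S-phase genes lie above 0, UHRF1 lies at 1.12, and TET1, TET2 and TET3 lie near 0.

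The levels of the S-phase genes also varied between lines. All 17 had lower values in CHLA 02 than in CHLA 04, 4 of them past 2-fold, where 17.2% of all genes were, and the median was -0.91 against -0.13 for all genes. All 17 had lower values in CHLA 02 than in CHLA 05 as well, 5 of them past 2-fold, where 20.0% of all genes were, with a median of -0.72 against -0.08. In CHLA 04, 16 had higher values than in CHLA 06 and 5 were past 2-fold, and in CHLA 05, 15 had higher values than in CHLA 06 and 4 were past 2-fold, where 30.2% and 26.3% of all genes were. RRM2 and CCNE1, a cyclin of S-phase entry, went against this order, with mean levels of 265 and 21.3 TPM in CHLA 06 and 229 and 19.7 TPM in CHLA 05. Between CHLA 02 and CHLA 06 none of the 17 was past 2-fold, where 9.48% of all genes were. E2F1, a transcription factor that drives entry into S phase, had 21.5 TPM in CHLA 02, 102 and 74.6 TPM in CHLA 04, 94.0 TPM in CHLA 05, and 10.1 and 22.2 TPM in CHLA 06. MCM2, a subunit of the replicative helicase, had 53.0 TPM in CHLA 02 and 41.5 and 75.5 TPM in CHLA 06, against 125 to 162 TPM in CHLA 04 and CHLA 05. TOP2A, a topoisomerase of dividing cells, had 143 to 214 TPM in CHLA 02 and CHLA 06 and 271 to 479 TPM in the other two. GINS2, another helicase subunit, followed the same order, with 7.20 to 16.8 TPM in CHLA 02 and CHLA 06 and 35.1 to 44.6 TPM in the other two. In bulk RNA, fewer cells in S phase and less RNA per cell cannot be told apart.

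A second set of genes moved in the opposite direction. The fibroblast markers COL1A1, COL3A1, DCN and LUM summed to 1248 TPM in CHLA 02 and to 1976 and 1118 TPM in CHLA 06, against 7.38 and 1.19 TPM in CHLA 04 and 20.7 TPM in CHLA 05. COL3A1, a fibrillar collagen, was at 841 TPM in CHLA 02 and 0.231 TPM in CHLA 04 replicate 2. LUM was at 1.67 TPM or below throughout. The glial markers did not share this order and were highest in CHLA 05. GFAP, an intermediate filament of astrocytes, had 151 TPM in CHLA 05, 23.9 to 47.9 TPM in CHLA 02 and CHLA 04, and at most 0.0419 TPM in CHLA 06. The other listed glial markers, S100B and OLIG2, had 15.2 and 14.2 TPM in CHLA 05 and at most 0.147 and 1.54 TPM elsewhere. The part of the S-phase, fibroblast or glial genes in the member differences was not tested.

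The structure of the annotated transcripts showed which forms of each member were present. The classes used here were set after the values were seen. The tool's way of dividing reads that several transcripts share is not given in the sources used here, so shares between overlapping transcripts are uncertain. TET2 gives an example, since ENST00000540549 and ENST00000513237 have identical exons yet were given 56 and 77 reads in CHLA 04 replicate 1 and 163 and 133 in CHLA 02.

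Of the 72 transcripts of the 7 genes, 25 held 10% or more of their gene's TPM in a library. The leading transcript of DNMT1 was ENST00000340748, with 40 exons and 13.5% to 35.8% of TPM, and that of DNMT3A was ENST00000264709, with 23 exons and 41.1% to 54.9%. That of DNMT3B was ENST00000328111, with 23 exons and 22.1% to 45.2%, except in CHLA 04 replicate 1, where ENST00000456297 held 32.9%. That of TET3 was ENST00000409262, with 11 exons and 88.8% to 95.9%.

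For DNMT1, 29 transcripts were listed. The 4 transcripts with 37 or more exons, which can encode the whole enzyme, held 52.4% to 76.3% of the reads of the gene but only 18.7% to 39.2% of its TPM, because the other 25 are short and TPM divides by length. The full-length class had 51.2 TPM in CHLA 02, 63.4 and 100.8 TPM in CHLA 04, 63.5 TPM in CHLA 05, and 43.6 and 77.0 TPM in CHLA 06. The libraries of CHLA 04 and CHLA 06 overlapped in this class, and CHLA 05 lay between those of CHLA 06, unlike in the summed TPM. The line means of CHLA 04 and CHLA 02 were 82.1 and 51.2 TPM, less than 2-fold apart. The call of DNMT1 between these lines thus did not hold for the full-length class. The share of reads on partial transcripts was highest in CHLA 04 replicate 1 and CHLA 05, at 47.6% and 46.6%, and lowest in CHLA 06 replicate 2, at 23.7%.

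DNMT3A is made as a long form from upstream promoters and as a short form, known as DNMT3A2, from a promoter inside the gene that is most used in embryonic and germ cells. The 3 transcripts with the upstream exons held 83.2% to 91.2% of the reads. The 2 transcripts from the internal start had 78 reads in CHLA 02, 133 in CHLA 05, 175 and 265 in the CHLA 04 replicates, and 80 and 48 in the CHLA 06 replicates. They amounted to 4.52% of the DNMT3A reads in CHLA 02, 5.76% in CHLA 05, 8.56% and 11.8% in the CHLA 04 replicates, and 5.71% and 4.24% in the CHLA 06 replicates. The share was highest in both CHLA 04 libraries. In TPM, the short form was at 16.6 and 15.2 in CHLA 04, 8.24 in CHLA 05, and 4.74 or below in CHLA 02 and CHLA 06. Of 6 RefSeq start sites of DNMT3A in GRCh38.p14, 1 upstream and 1 internal site are shown for the starts of these forms, from 250 bases before the start to its 20th base, 5′ to 3′ on the minus strand, with CG dinucleotides in capitals. The upstream window is chr2:25342464-25342733 and the internal window chr2:25252296-25252565.

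DNMT3A upstream start: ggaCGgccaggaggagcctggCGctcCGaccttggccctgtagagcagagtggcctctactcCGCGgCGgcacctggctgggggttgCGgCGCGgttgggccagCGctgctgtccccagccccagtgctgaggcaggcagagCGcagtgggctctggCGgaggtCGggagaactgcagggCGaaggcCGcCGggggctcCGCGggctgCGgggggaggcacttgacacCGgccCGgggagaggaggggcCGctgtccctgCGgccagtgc
DNMT3A internal start: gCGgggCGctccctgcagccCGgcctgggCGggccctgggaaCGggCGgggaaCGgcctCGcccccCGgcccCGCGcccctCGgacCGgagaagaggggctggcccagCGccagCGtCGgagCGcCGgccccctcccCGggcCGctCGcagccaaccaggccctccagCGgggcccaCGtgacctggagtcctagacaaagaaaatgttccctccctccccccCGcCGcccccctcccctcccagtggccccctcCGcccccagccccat

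The 300 bases around the upstream start held 26 CG dinucleotides and those around the internal start 28, while the median over 35116 RefSeq promoters of this length was 14. Transcripts starting within 200 bases of the upstream site held 45.1% to 61.9% of DNMT3A TPM and those at the internal site 7.61% to 23.3%. The 3 upstream start sites in RefSeq held 18, 26 and 46 CG dinucleotides and the 3 internal ones 18, 26 and 28, so the ranges overlapped. The start with 46 lay within 200 bases of 1 transcript, which held 3.33% to 5.93% of DNMT3A TPM.

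DNMT3B is spliced into forms with and without a pair of exons near the 3′ end that encode part of the catalytic domain, and forms without them are known to lack activity. In this annotation 3 transcripts had both exons and 3 had neither. Forms with both exons held 67.5% of the reads in CHLA 02, 66.0% in CHLA 05, 54.5% and 69.2% in the CHLA 04 replicates, and 61.3% and 71.3% in the CHLA 06 replicates. The technical replicates of CHLA 04 thus bracketed most of the range of the 4 lines. The counts behind these shares were small, with 55 to 139 reads on the forms with both exons.

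TET1 had 1 transcript in the annotation, ENST00000373644, with 12 exons. TET3 reads fell almost wholly on 2 transcripts with 11 exons, at 99.3% to 99.8%. UHRF1 was divided over 6 transcripts of 16 or 17 exons and 2651 to 4309 bp that together held 97.6% to 99.0% of the reads. By mean TPM over the 6 libraries the highest of them was ENST00000615884, which led in both CHLA 04 libraries at 31.4% and 39.2% of UHRF1 TPM. In the other 4 libraries ENST00000622802 led, with 30.9% in CHLA 02, 36.0% in CHLA 05, and 34.1% and 31.8% in the CHLA 06 replicates, against 18.8% to 30.2% for ENST00000615884.

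TET2 differed from TET1 and TET3 in that the leading transcript ended early. ENST00000305737, with 3 exons, stops before the exons that encode the catalytic domain, and it held 53.3% of TET2 TPM in CHLA 02, 53.5% in CHLA 05, 30.8% and 51.7% in the CHLA 04 replicates, and 52.1% and 48.2% in the CHLA 06 replicates. All transcripts that ended upstream of the last exon together held 55.5% to 63.3% of the reads. The 4 transcripts that reached the last exon had 9.06 TPM in CHLA 02, 9.46 and 8.71 TPM in CHLA 04, 20.1 TPM in CHLA 05, and 11.8 and 10.9 TPM in CHLA 06. CHLA 05 was thus the highest line for this class as well, above both CHLA 06 libraries, which came next. The early-ending transcript and most of the others begin at separate start sites. Windows of 250 bases before to 20 bases into each RefSeq start are shown on the plus strand with CG dinucleotides in capitals, chr4:105145625-105145894 for the early-ending transcript and chr4:105146626-105146895 for 6 of the others.

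TET2 first start: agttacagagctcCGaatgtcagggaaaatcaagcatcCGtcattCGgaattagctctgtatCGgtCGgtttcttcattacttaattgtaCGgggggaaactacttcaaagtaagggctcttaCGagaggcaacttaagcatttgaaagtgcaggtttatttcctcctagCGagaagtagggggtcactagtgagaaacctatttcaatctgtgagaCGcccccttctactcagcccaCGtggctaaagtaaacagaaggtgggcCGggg
TET2 second start: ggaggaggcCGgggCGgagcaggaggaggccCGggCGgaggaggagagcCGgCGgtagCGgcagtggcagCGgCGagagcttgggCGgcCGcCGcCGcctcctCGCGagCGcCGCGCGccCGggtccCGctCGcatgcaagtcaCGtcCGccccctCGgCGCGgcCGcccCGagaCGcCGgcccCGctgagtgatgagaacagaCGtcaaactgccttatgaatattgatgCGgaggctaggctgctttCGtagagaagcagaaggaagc

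The first window, extended to 300 bases, held 13 CG dinucleotides, close to the median of 14 over all promoters, and 51.7% of them had as many. The second held 35, a number reached by 14.1% of promoters. Transcripts within 200 bases of the first start had 30.7 TPM in CHLA 05 and 10.7 to 15.4 TPM in the other libraries. Those at the second start had 15.8 TPM in CHLA 05 and 7.38 to 14.4 TPM elsewhere, so CHLA 05 was highest at both.

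**Figure D4:**
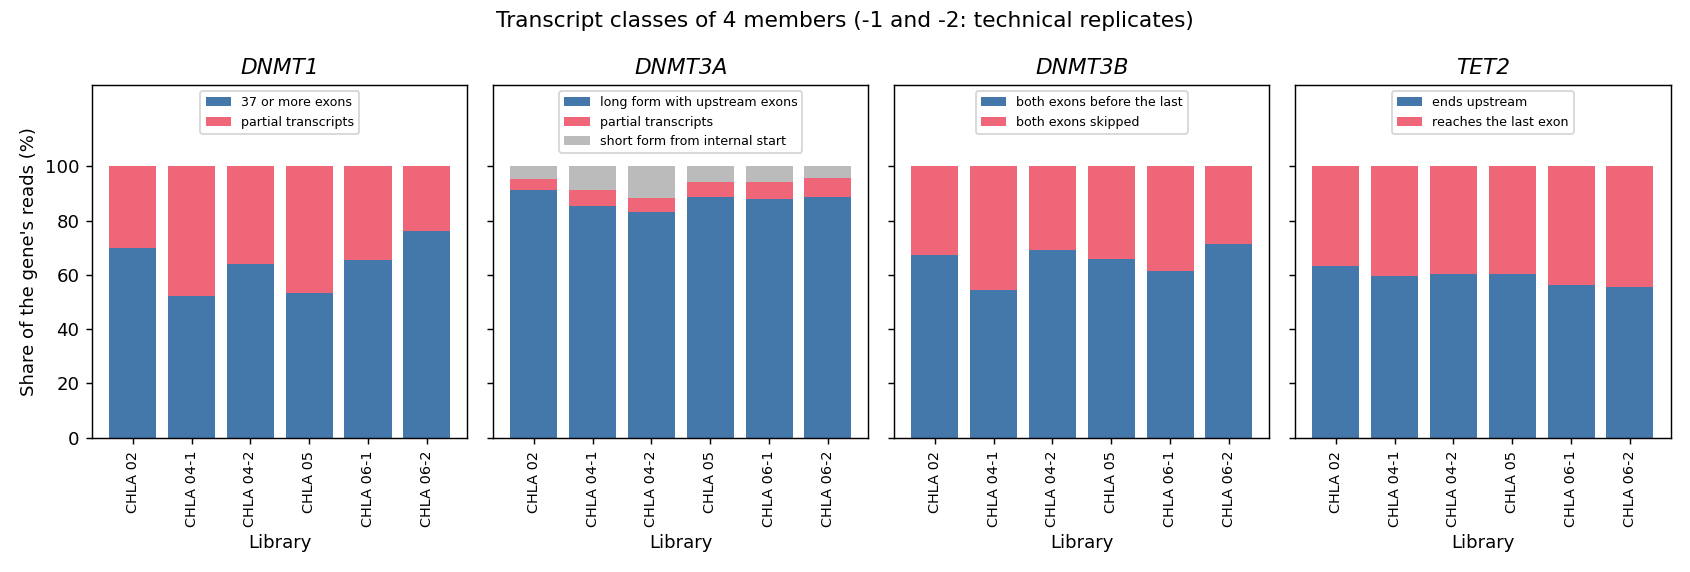
Share of the reads of DNMT1, DNMT3A, DNMT3B and TET2 on each class of annotated transcripts in the 6 libraries, as stacked bars that sum to 100%. Transcripts of DNMT1 with 37 or more exons hold 52.4% to 76.3%, the internal start of DNMT3A holds 4.24% to 11.8%, DNMT3B forms with both exons hold 54.5% to 71.3%, and TET2 transcripts that reach the last exon hold 36.7% to 44.5%.

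Since UHRF1 and the S-phase genes were higher in replicate 2 of CHLA 06, the promoters of the members were searched for sites of the E2F type, which are found upstream of many replication genes. The search used the motifs TTTCCCGC, TTTCGCGC, TTTGCCGC and TTTGGCGC on both strands of the 300 bases of each RefSeq promoter. A match was present in 3 of 18 start windows of the 7 genes, 1 of DNMT1 and 2 of UHRF1, and in 3.31% of all 35116 promoters. These shares are not like for like. Each motif contains CG, and the matching windows held 30, 36 and 40 CG dinucleotides, where the median promoter held 14. Some windows of the same gene also overlap, so the 18 are not independent, and the counts were not tested. The window of DNMT1 (chr19:10194934-10195203, minus strand) and the first matching one of UHRF1 (chr19:4909251-4909520, plus strand) are shown with the match in capitals.

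DNMT1 start: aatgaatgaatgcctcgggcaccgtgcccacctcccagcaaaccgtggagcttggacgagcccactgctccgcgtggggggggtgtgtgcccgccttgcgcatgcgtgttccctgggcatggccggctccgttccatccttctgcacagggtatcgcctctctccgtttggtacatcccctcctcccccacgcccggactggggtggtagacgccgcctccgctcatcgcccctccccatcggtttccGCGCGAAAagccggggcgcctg
UHRF1 start: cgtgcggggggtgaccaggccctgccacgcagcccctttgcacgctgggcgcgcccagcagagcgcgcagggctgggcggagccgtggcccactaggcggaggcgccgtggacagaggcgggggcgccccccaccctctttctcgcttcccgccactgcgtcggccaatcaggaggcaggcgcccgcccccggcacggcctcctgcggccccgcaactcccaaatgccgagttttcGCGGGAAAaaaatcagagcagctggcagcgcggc

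The match in DNMT1 began 2 bases before the start site and that in UHRF1 14 bases before it. A second UHRF1 start had a match 160 bases upstream. A match is a string of letters and not a measured binding site, and the absence of one in the other members says only that these letters are not in the windows. For some members the windows did not cover the starts most in use. No listed transcript of TET1 began within 200 bases of its RefSeq starts. The windows of TET3 and DNMT3B reached transcripts with at most 3.48% and 13.4% of the gene's TPM, so the main starts of these 3 genes were not searched. DTYMK, a kinase that supplies dTTP for replication, was the gene most like DNMT1 over the 6 libraries, with a Pearson r of 0.997 on log2(TPM + 2). A histone H3 gene, HIST1H3H, and WDR62, a centrosomal protein of neural progenitors, followed at 0.996 each. RAD54L, a recombination factor, was the gene most like UHRF1 at 0.995. Next to RAD54L came DSN1, a kinetochore subunit, at 0.987 and GINS4, of the replicative helicase, at 0.983. The points share 4 cell lines and the scaling of each library, and among the 6891 genes that varied 2-fold or more between lines, 214 reached 0.95 with DNMT1 and 21 with UHRF1.

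Of the other members, TET1, TET3 and DNMT3A were compared in the same way. TET1 had 605 and TET3 627 genes at 0.95 or above, and DNMT3A had 298. The genes most like TET1 were RP11-231C18.3, PRKD1, a protein kinase, and VPS37B, a subunit of the ESCRT sorting complex, at 0.998 or above. VPS37B ranged from 19.2 TPM in CHLA 06 to 399 TPM in CHLA 05. Those most like TET3 were CELF5, a neuronal RNA-binding protein, ANK2, an ankyrin, and TEF, a circadian transcription factor. Those most like DNMT3A were CACFD1, FAAP100, of the Fanconi anemia core complex, and NKIRAS2. Among the members themselves, the 5 that varied 2-fold or more between lines were compared with each other, and r ran from 0.532 for DNMT3A and UHRF1 to 0.956 for DNMT3A and TET3. DNMT3B and TET2 varied less and were left out.

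Of 10 listed cofactors of the maintenance enzyme, 8 had 1 TPM or more in a line. LIG1 alone was past 2-fold in a pair of lines, namely CHLA 04 over CHLA 02 and over CHLA 06, where 17.2% and 30.2% of all genes were past 2-fold. LIG1, the ligase that joins Okazaki fragments and is a ligand of UHRF1, had 53.3 TPM in CHLA 02, 158 and 143 TPM in CHLA 04, 96.4 TPM in CHLA 05, and 44.1 and 61.2 TPM in CHLA 06. HELLS and CDCA7, which remodel nucleosomes for methylation, ran from 71.1 to 161 TPM and from 36.4 to 102 TPM. UHRF2, the paralog of UHRF1, had its highest values where UHRF1 was not highest, with 70.8 and 75.2 TPM in CHLA 06 and 34.6 and 44.4 TPM in CHLA 04, and no pair of lines was past 2-fold. DPPA3, which removes UHRF1 from chromatin in oocytes, was listed at 0.

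Among 9 partners of the other methyltransferases, 8 were at 1 TPM or more and 3 were past 2-fold in a pair. Between CHLA 04 and CHLA 06, 2 of the 8 were, where 30.2% of all genes were. Between CHLA 02 and CHLA 04 and between CHLA 05 and CHLA 06 it was 1 of 8 each, where 17.2% and 26.3% of all genes were. None of these counts stood above the share of all genes. EHMT2, a histone H3 lysine methyltransferase also named G9a, had 70.7 TPM in CHLA 02, 187 and 140 TPM in CHLA 04, 89.0 TPM in CHLA 05, and 64.1 and 65.8 TPM in CHLA 06. WHSC1, which dimethylates H3 lysine 36, had 401 and 407 TPM in CHLA 04 and 166 and 190 TPM in CHLA 06. QSER1, a protein that protects bivalent promoters from methylation, had 156 TPM in CHLA 05 and 68.4 and 82.04 TPM in CHLA 06. SETD2, NSD1, SETDB1, EHMT1 and KDM1A had no pair past 2-fold.

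Of the genes around the TET enzymes, all 20 genes of the oxidation and excision list had 1 TPM or more in a line. Between CHLA 04 and CHLA 06, 7 of them were past 2-fold higher in CHLA 04 and 2 lower, where 30.2% of all genes were past 2-fold in either direction. Between CHLA 05 and CHLA 06, 6 were higher in CHLA 05 and 0 lower, where 26.3% of all genes were past 2-fold, a share near that of the list. CXXC4, a CXXC protein whose gene neighbors TET2 and that promotes loss of TET2 protein, had 6.88 TPM in CHLA 02, 17.2 and 20.7 TPM in CHLA 04, 35.5 TPM in CHLA 05, and 0.441 and 0.432 TPM in CHLA 06. The order of the lines for CXXC4 was that of TET1. IDH2, which makes the cosubstrate 2-oxoglutarate in mitochondria, had 54.9 TPM in CHLA 02, 165 and 113 TPM in CHLA 04, 116 TPM in CHLA 05, and 18.4 and 25.1 TPM in CHLA 06, and it was past 2-fold in 5 of 6 pairs. CXXC5, a paralog of CXXC4, was past 2-fold in 3 pairs and lowest in CHLA 06 at 9.77 and 6.31 TPM. GADD45G, a stress gene linked to active demethylation, was listed at 0 in both CHLA 06 libraries and was at 20.1 to 70.9 TPM in the others. TDG, the glycosylase that excises oxidized cytosines, ran from 31.1 to 62.4 TPM with no pair past 2-fold.

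Of 9 readers of methylated DNA, ZBTB38 varied most. This zinc finger protein, which binds methylated CG and represses transcription, had 121 TPM in CHLA 02, 17.1 and 16.2 TPM in CHLA 04, 88.7 TPM in CHLA 05, and 264 and 199 TPM in CHLA 06, the reverse of the order of TET3 for CHLA 04 and CHLA 06. MBD3, a subunit of the NuRD complex, had 129 and 85.1 TPM in CHLA 04 and 36.3 and 36.1 TPM in CHLA 06. ZBTB33, also named Kaiso, was highest in CHLA 05 at 53.4 TPM, and MBD1 in CHLA 04 at 100.04 and 75.6 TPM. MBD2 had no pair past 2-fold. In the supply of methyl donors, with 13 genes, 0 were past 2-fold between CHLA 04 and CHLA 06 or between CHLA 05 and CHLA 06, where 30.2% and 26.3% of all genes were. Between CHLA 02 and CHLA 05, 3 of 13 were past 2-fold, all higher in CHLA 05, where 20.0% of all genes were. NNMT, which methylates nicotinamide, and TYMS, which makes thymidylate and is itself an S-phase gene, were each past 2-fold in at least 1 pair. MAT2A, which makes S-adenosylmethionine, ran from 196 to 369 TPM.

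Of all 36532 gene identifiers, 16035 had 1 TPM or more in a line, so lower values were common. Of 12 germline genes whose promoters are kept silent by methylation in somatic cells, 11 were below 1 TPM in every line, among them DAZL, DDX4, MAGEA1 and CTAG1B. MAEL, a factor of the piRNA pathway in germ cells, was the exception, with 10.3 TPM in CHLA 05, 1.05 and 0.940 TPM in CHLA 04, 0.480 TPM in CHLA 02 and a listed value of 0 in CHLA 06. CHLA 05 was also the line with the highest TET1, TET2 and DNMT3B. Methylation at MAEL was not measured, and the value of 1 line carries no replicate.

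Annotated LTR elements, the long terminal repeats and internal parts of endogenous retroviruses, also lie within the members. Their TPM values were scaled over LTR elements alone and are not comparable with gene TPM, so recovered reads are given. The spans of the 7 genes held 39 elements, of which 11 had 1 read or more in a library. The 5 with the highest mean TPM lay on the strand of their gene. An MSTC element in TET3 (chromosome 2, 74055631-74056034) had 5 reads in CHLA 02, 10 in CHLA 05, 20 and 21 in the CHLA 04 replicates, and 3 and 4 in the CHLA 06 replicates, the order of TET3 itself. An MER21A element in TET2 (chromosome 4, 105214685-105215205) had 18 reads in CHLA 05 and 7 to 15 elsewhere, and an MSTB element in the same gene (105226409-105226866) had 8 in CHLA 05 and 1 to 8 elsewhere. An MLT1D element in DNMT3A (chromosome 2, 25321145-25321598) had 7 to 17 reads, and a THE1B element in UHRF1 (chromosome 19, 4935272-4935478) had 0 to 7. Reads from unspliced RNA of the gene and from a transcript of the element cannot be told apart. Of other genes that overlap a member, S1PR2, whose span overlaps that of DNMT1, was at 0.257 TPM or below, and TET2-AS1, antisense to TET2, was listed at 0.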

How the data were processed

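Total RNA of 4 AT/RT cell lines was sequenced as 6 stranded, paired libraries with reads of 125 bp. Per the labels and the study's methods, base calling used CASAVA 1.8.2, reads were checked with FastQC and trimmed with Trimmomatic, and the authors mapped them in CLCbio Genomics Workbench to GRCh38 with Ensembl release 82. The strand setting of counting and the treatment of shared reads are not given in the sources used here. The authors deposited TPM per transcript and, from a separate mapping, TPM per RepeatMasker LTR element. Counts were not among the files used here.

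Gene TPM was the sum over transcripts of an identifier, and technical replicates were averaged. Multiplied by length, at least 99.6% of the transcript TPM values above 0 were whole multiples of a step within 0.05 reads, and these steps gave recovered reads, a procedure tested on simulated data. Exact Poisson intervals are at the 95% level. With 1 biological sample per line, no test between lines and no p-value was computed, and lines were compared by a 2-fold threshold on log2(TPM + 2) among genes with 1 TPM or more in a line. Promoters are RefSeq sequences of GRCh38.p14. Tools were pandas 2.3.3, numpy 2.4.6 and scipy 1.17.1.

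The members and lists were chosen with earlier results of these data known. Named were all members, the leading ones of the transcripts with 10% of a member's TPM or more, the list genes past 2-fold in the most pairs (up to 4 per list) with DNMT3L and UHRF2, the 3 genes most like each member that varied 2-fold, overlapping genes, and up to 5 LTR elements. Other genes and transcripts named were chosen after their values were seen. Some list genes are not reported here. Alternatives were other pseudocounts, thresholds, filters and scalings, the higher technical replicate, leaving out each technical replicate and single transcripts. Reads per kb of merged exons were added after the data were seen.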

Additional observations from a re-analysis of the deposited data

How the results depend on the processing

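Of 28 member levels (7 genes in 4 lines), all 28 stayed within 1.5-fold of the reported value with quantile normalization, median-ratio scaling and the higher technical replicate, and 27 to 28 did when a technical replicate was left out. With reads per kb of merged exons 16 did, and with the transcript of the highest mean TPM alone 8 did, both of which change the length that reads are divided by. The 11 combinations of member and pair past 2-fold became 9 with either scaling, 13 with the higher technical replicate, 11 to 13 when a technical replicate was left out, 12 and 14 with pseudocounts of 0.5 and 0.1, 14 with merged exons and 26 at a threshold of 1.5-fold. No called difference reversed under any of these. The mean share of genes past 2-fold over the 6 pairs was 20.1%, became 31.4% with a pseudocount of 0.1 and 8.81% without the filter on low values, and ran from 19.6% to 22.0% when a technical replicate was left out. The 90 list genes with 1 TPM or more in a line gave 111 gene and pair combinations past 2-fold over the 6 pairs. Under the alternatives there were 97 to 137. This count was not tested against the mean share of 20.1% for all genes. Of the 11 LTR elements with a read, 5 had 5 reads or more and 6 lay on the strand of the gene. Of 20 ratios between members, 14 stayed within 1.5-fold with the most abundant transcript alone. Depth limited DNMT3B and the LTR elements, and the absence of a second culture per line limited every comparison. No paired analysis was possible because the replicate numbers mark technical replicates of 2 lines and no result came from a test.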
